A study of Mus musculus with 8 samples.

Results

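The MYC family and its partners are described here across 4 groups of mouse embryonic stem cells (ESCs). The 8 genes are Myc, Mycn, Mycl, Max, Mxd3, Mxd4, Mxi1 and Mnt, out of 18193 genes on the array. They were taken as every probe set whose only gene symbol in the probe annotation was 1 of these 8, which gave 19 probe sets. Of these, 14 passed a minimum signal (50, linear) on 1 array or more and entered the tests, and each of the 8 genes kept at least 1.

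V6.5 is a mouse ESC line, and all cells carried a lentivirus with an shRNA against mouse Wdr5 and a human WDR5 transgene that doxycycline (dox) switches on. WDR5 belongs to the complexes that place H3K4 methylation, a mark of active promoters, and the F266A substitution was studied because it weakens binding of WDR5 to RNA. The 4 groups were F266A -dox and F266A +dox, with the mutant transgene, and WT -dox and WT +dox, with the wild type transgene. Cells grew with 2 µg/mL dox or with 0 µg/mL, and total RNA of 2 biological duplicates per group was measured on 8 Affymetrix expression arrays. No group lacks the shRNA, and each transgene is represented by 1 infected, sorted population, so the transgene and that population cannot be told apart. Nor does any group lack a transgene, so an effect of dox itself and one of switching the transgene cannot be told apart. In bulk RNA, fewer cells with a transcript and less transcript per cell cannot be told apart either.

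MYC proteins are basic helix-loop-helix leucine zipper factors that bind DNA as heterodimers with MAX and recruit coactivators to promoters. The MXD proteins, MXI1 and MNT compete for MAX and recruit SIN3 and histone deacetylases to the same E-box sequences, so the balance between the MYC side and the MXD side decides how such sites are read. In mouse ESCs, Myc acts downstream of LIF and STAT3, and Myc and Mycn support self renewal. WDR5 itself binds MYC and helps to bring it to chromatin.

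Values are deposited log2 RMA values, and a gene's value is the mean of its probe sets that passed. A difference is given on the log2 scale with its standard error from limma, in which 1 SE of a difference between 2 groups had a median of 0.08 over all genes. A gene was called at a Benjamini-Hochberg adjusted p under 0.05 over the 11940 genes tested. Duplicate arrays correlated at 0.997 to 0.998, arrays of different groups at 0.985 to 0.996, and the array medians lay between 5.36 and 5.39. The probe sets annotated to mouse Wdr5, the target of the shRNA, read 9.31 and 9.27 in F266A -dox cells and 8.59 and 8.56 in F266A +dox cells. They read 9.45 and 9.35 in WT -dox cells, against 8.35 and 8.32 in WT +dox cells. The Wdr5 signal was thus higher without dox in both lines, in cells that carry the shRNA throughout, and whether these probe sets also read the human transgene was not tested. All 10 ESC markers were above the minimum, and their summed linear signal was 29429 to 31675 in F266A -dox cells and 36872 to 36902 in F266A +dox cells. It was 38808 to 40197 in WT -dox cells and 40798 to 42138 in WT +dox cells. None of the 8 fibroblast or feeder markers exceeded the minimum in any array.

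Promoter sequences show which members share an E-box, the element that MYC and MAX bind, and which do not. RefSeq windows (GRCm38.p6) were found for 7 of the 8 genes, 9 windows in all, and Myc had none in the table. Each window holds 250 bases before the annotated start and the first 30 transcribed bases. An E-box (CACGTG, the same on both strands) was in the windows of Max, Mxd4 and Mnt, 3 of 7 genes, against 6.79% of all 32851 windows of that length. A GC box (GGGCGG, either strand) was in 6 of 7 genes, all but Max, against 34.7% of all windows. An E2F motif (TTTGGCGC, either strand) was found in Mycn alone, 2 copies 15 bases apart, against 0.469% of all windows. Members were counted by gene, Mxi1 with several windows, while the shares are of single windows, so their units differ. A match is a description of the letters and not evidence of a bound site.

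The windows of 4 members, chosen after their array values were seen, are printed 5′ to 3′ on the gene's strand, with E-boxes, GC boxes and E2F motifs in capitals. Mycn (chr12:12941807-12942086, minus strand) was called in WT cells in the same direction as Myc, Max (chr12:76962219-76962498, minus strand) was not called in any comparison, and Mxd3 (chr13:55329702-55329981, minus strand) and Mxi1 (chr19:53310256-53310535, plus strand, the first of 3 annotated starts) were lower in F266A +dox than in WT +dox cells, where Myc was higher.
Mycn: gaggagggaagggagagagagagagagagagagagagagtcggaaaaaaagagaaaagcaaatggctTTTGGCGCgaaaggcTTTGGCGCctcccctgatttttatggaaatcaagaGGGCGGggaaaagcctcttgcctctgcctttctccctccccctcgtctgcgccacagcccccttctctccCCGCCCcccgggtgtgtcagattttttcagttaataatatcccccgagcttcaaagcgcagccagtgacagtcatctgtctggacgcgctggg
Max: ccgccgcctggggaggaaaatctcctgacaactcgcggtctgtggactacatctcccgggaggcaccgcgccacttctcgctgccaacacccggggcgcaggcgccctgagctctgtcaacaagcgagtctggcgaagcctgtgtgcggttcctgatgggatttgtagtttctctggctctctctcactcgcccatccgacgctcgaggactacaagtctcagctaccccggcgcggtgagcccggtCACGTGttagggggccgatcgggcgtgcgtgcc
Mxd3: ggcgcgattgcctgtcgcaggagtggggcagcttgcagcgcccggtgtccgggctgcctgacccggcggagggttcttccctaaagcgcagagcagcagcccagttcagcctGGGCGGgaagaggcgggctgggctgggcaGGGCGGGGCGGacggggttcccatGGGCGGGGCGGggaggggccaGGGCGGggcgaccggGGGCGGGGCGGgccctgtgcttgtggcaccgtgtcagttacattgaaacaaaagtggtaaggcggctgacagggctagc
Mxi1: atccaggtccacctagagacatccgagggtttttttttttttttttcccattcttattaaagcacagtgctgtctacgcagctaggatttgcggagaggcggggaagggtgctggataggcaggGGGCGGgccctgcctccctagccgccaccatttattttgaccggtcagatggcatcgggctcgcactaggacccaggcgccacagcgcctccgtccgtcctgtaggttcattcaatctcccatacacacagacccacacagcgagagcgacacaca
In these windows the E-box of Max began 3 bases before the start, and the E2F motifs of Mycn began 183 and 168 bases before it. Mxd3 held 8 GC boxes, some of them overlapping, between 138 and 44 bases before its start, and the first window of Mxi1 held 1.

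Myc, the founding member of the family, was lowest by far in WT +dox cells and high in the other 3 groups. It had log2 values of 8.97 and 8.84 in F266A -dox cells, 7.88 and 7.67 in F266A +dox cells, 8.47 and 8.41 in WT -dox cells and 5.84 and 6.09 in WT +dox cells. In linear signal that was 502 and 458, 236 and 204, 354 and 339, and 57.3 and 67.9 in the same order. No 2 groups overlapped, and the duplicates of a group were closer to each other than to any array of another group. The order, from the highest, was F266A -dox, WT -dox, F266A +dox, WT +dox, and each step in it passed the test. The summed linear signal of 5 measured neural progenitor markers ran in a similar order, with 461 to 502 in F266A -dox cells, 459 to 474 in WT -dox cells, 394 to 400 in F266A +dox cells and 360 to 386 in WT +dox cells. Of these markers 3 exceeded the minimum on any array and Pax6 and Map2 did not. The summed signal of 7 trophectoderm markers did not run in that order. It was 1197 to 1232 in WT +dox cells, 1120 to 1183 in F266A -dox cells, 1091 to 1118 in F266A +dox cells and 972 to 983 in WT -dox cells. Of those 7, 5 exceeded the minimum on any array and Elf5 and Gata3 did not. The summed signal of 7 primitive endoderm markers, 1 of them above the minimum, ran in the order of Myc. It was 211 to 214 in F266A -dox cells and 181 to 189 in WT -dox cells. F266A +dox cells had 177 to 180 and WT +dox cells 171 to 175. The summed mesoderm markers did not, with 195 to 199 in WT -dox cells and 196 to 205 in WT +dox cells. The part of any of these sets of markers in the levels of Myc was not tested.

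**Figure D1:**
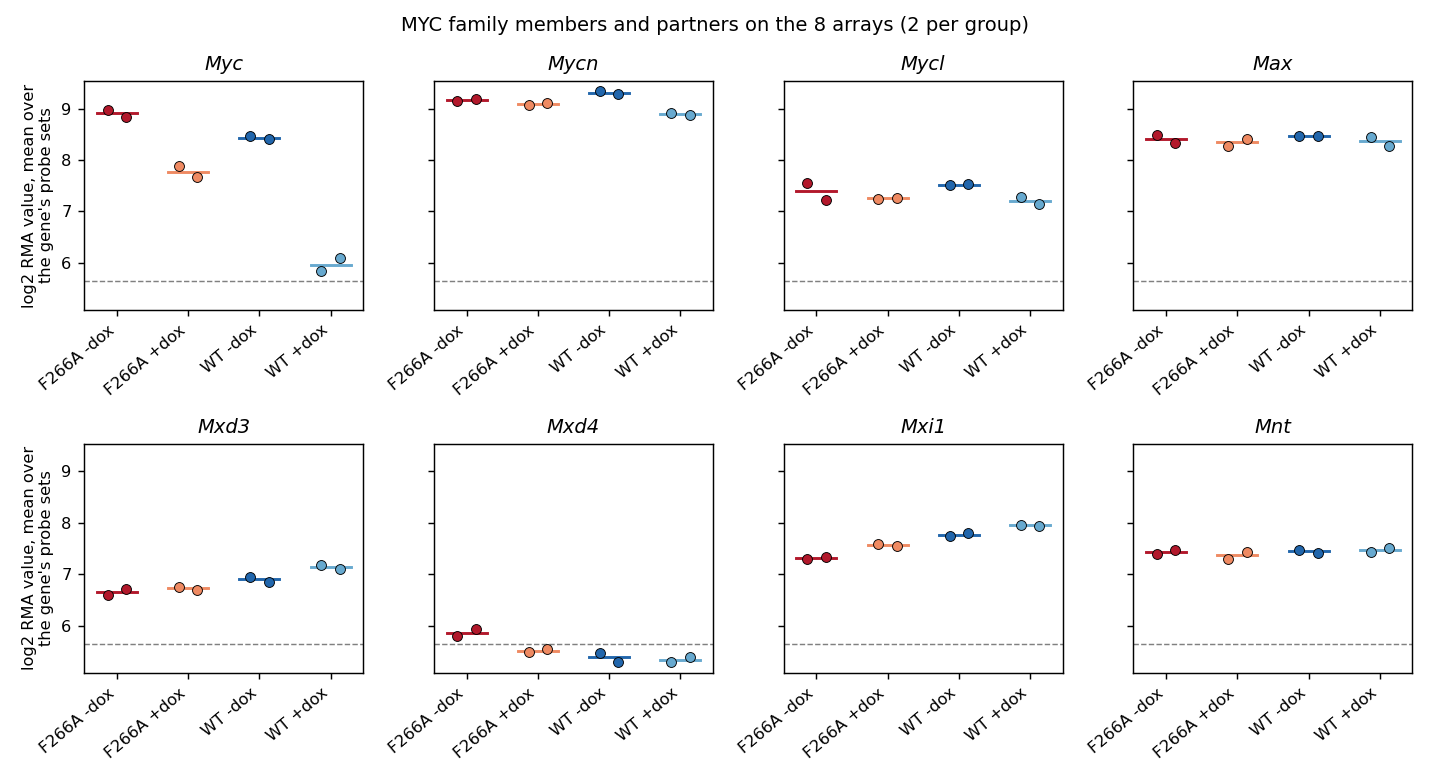
Log2 RMA value (y axis) of each of the 8 genes on the 8 arrays, by group (x axis). Points are single arrays, horizontal bars are the mean of 2 arrays, and the dashed line is the minimum of 50 on the linear scale. Myc spans 5.84 to 8.97 while Max and Mnt stay within 8.27 to 8.50 and 7.30 to 7.51.

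In WT cells, WT -dox was compared with WT +dox, which differ in the transgene being off or on and in dox itself. Myc was 2.47 ± 0.10 higher in WT -dox cells (5.56-fold, adjusted p = 1.89e-06), the second largest rise among all 11940 genes. In F266A cells it was 1.13 ± 0.10 higher in F266A -dox than in F266A +dox cells (2.19-fold, adjusted p = 0.000294). The rise was smaller in the F266A line, and the test of that difference itself, the interaction of line and dox, gave -1.35 ± 0.14 (adjusted p = 0.00188). Myc was read by 1 probe set, so no other probe set could be compared with it. Its WT +dox values, 57.3 and 67.9 in linear signal, lay just above the minimum. The sizes of its differences from WT +dox cells, and of the interaction, thus depend on values near the minimum.

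The 2 transgenes were compared at equal dox. With dox, Myc was 1.81 ± 0.10 higher in F266A +dox than in WT +dox cells (3.51-fold, adjusted p = 6.48e-06). Without dox it was 0.47 ± 0.10 higher in F266A -dox than in WT -dox cells (1.38-fold, adjusted p = 0.00858). That smaller difference was not called when the second WT -dox array was left out (0.44, adjusted p = 0.0531). F266A +dox cells, where the mutant transgene is on, stayed 0.66 below WT -dox cells, where the transgene is off (-0.66 ± 0.10, adjusted p = 0.00308). Between the extremes, F266A -dox and WT +dox cells, Myc differed by 2.94 ± 0.10 (7.69-fold, adjusted p = 1.32e-07).

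Mycn, the family member known for its part in neuroblastoma and in early embryos, moved in the same direction as Myc in WT cells but by much less. It had 9.16 and 9.19 in F266A -dox cells, 9.08 and 9.10 in F266A +dox cells, 9.33 and 9.28 in WT -dox cells and 8.91 and 8.87 in WT +dox cells. WT +dox cells were again lowest and did not overlap any other group, but here WT -dox cells were highest. Mycn was 0.42 ± 0.06 higher in WT -dox than in WT +dox cells (adjusted p = 0.00131) and 0.29 ± 0.06 higher in F266A -dox than in WT +dox cells (adjusted p = 0.00466). Within the F266A line the difference was 0.09 ± 0.06 (adjusted p = 0.371, 95% interval -0.06 to 0.23), and the interaction missed the threshold (-0.33 ± 0.09, adjusted p = 0.0743). With dox, F266A cells were 0.20 ± 0.06 above WT cells (adjusted p = 0.0454). That call was lost when any of the 8 arrays was left out, with adjusted p between 0.0507 and 0.164.

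The 3 probe sets of Mycn did not behave alike, which the mean over them hides. Probe set 1417155_at read 11.69 and 11.71 in F266A -dox cells, 11.58 and 11.54 in F266A +dox cells, 11.87 and 11.80 in WT -dox cells and 11.12 and 11.26 in WT +dox cells. Probe set 1425922_a_at read 8.43 and 8.50, 8.43 and 8.30, 8.78 and 8.67, and 8.20 and 8.07 in the same groups. Both rose without dox in WT cells, by 0.64 ± 0.08 (adjusted p = 0.000623) and 0.59 ± 0.09 (adjusted p = 0.0016), in a fit of single probe sets that called 27.5% of 20046. The third, 1425923_at, stayed between 7.22 and 7.46 on all arrays and differed by 0.01 ± 0.09 (adjusted p = 0.947). For 1417155_at the interaction was called as well (-0.50 ± 0.11, adjusted p = 0.0494), where 2.71% of probe sets were, and for 1425922_a_at it was -0.49 ± 0.12 (adjusted p = 0.0699). Taken as its probe set with the highest mean, Mycn thus differed by 0.64 between WT -dox and WT +dox cells in place of 0.42, and which of the 3 reads the main transcript was not tested.

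**Figure D2:**
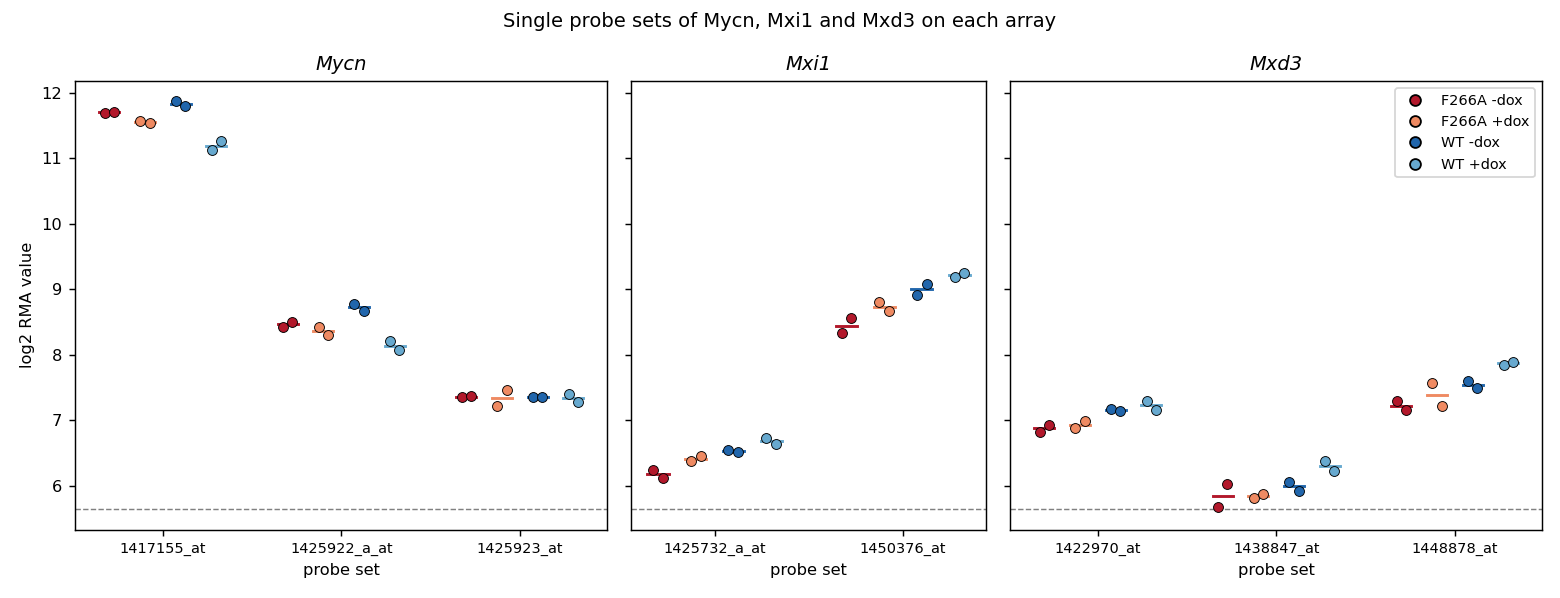
Log2 RMA value (y axis) of every passing probe set of Mycn, Mxi1 and Mxd3 (x axis). Points are arrays, bars are means of 2 arrays, and the dashed line is the minimum; each probe set has its 4 groups in the order of the legend. Of the Mycn probe sets, 1425923_at stays between 7.22 and 7.46 in every group, and both probe sets of Mxi1 step upward across the 4 groups.

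Mycl, the third MYC gene, had 7.56 and 7.22 in F266A -dox cells, 7.24 and 7.26 in F266A +dox cells, 7.50 and 7.52 in WT -dox cells and 7.28 and 7.14 in WT +dox cells. The F266A -dox duplicates were 0.34 apart and spanned most of the range of the other groups. No comparison called it. In WT cells the difference was 0.31 ± 0.11 (adjusted p = 0.0515), in the direction of Myc and Mycn, and it crossed the threshold under 7 of the alternatives that kept all arrays and without either F266A -dox array (adjusted p = 0.0119). Its other 2 probe sets stayed below the minimum on all arrays, and with these averaged in, the difference was 0.071 (adjusted p = 0.718).

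Max, the common partner of MYC, MXD and MNT proteins, had 8.50 and 8.33 in F266A -dox cells, 8.27 and 8.41 in F266A +dox cells, 8.47 and 8.47 in WT -dox cells and 8.46 and 8.27 in WT +dox cells. Its group means spanned 0.13, against 2.94 for Myc. The difference between WT -dox and WT +dox cells was 0.11 ± 0.09 (adjusted p = 0.4), with a 95% interval from -0.09 to 0.31. No comparison called Max.

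**Figure D3:**
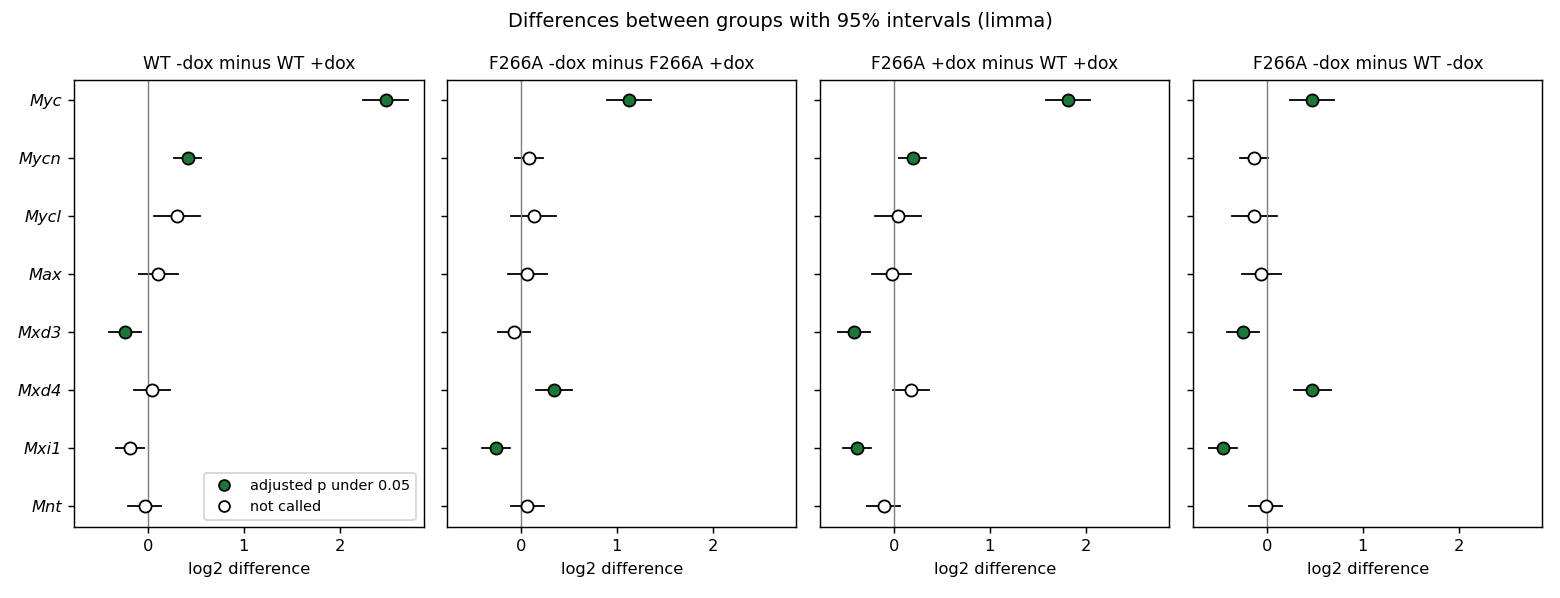
Log2 difference (x axis) of each of the 8 genes (y axis) in 4 comparisons, as limma estimates with 95% intervals. Filled points have an adjusted p under 0.05 over all 11940 genes. Myc is to the right of 0 in every panel, while Mxi1 lies to the left of 0 in every panel and is called in 3 of them.

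On the repressor side, Mxi1 and Mxd3 were lower where the transgene was mutant, and their means were lowest in F266A -dox cells. Mxi1 encodes a MAX partner that opposes MYC. It had 7.29 and 7.34 in F266A -dox cells, 7.59 and 7.56 in F266A +dox cells, 7.73 and 7.80 in WT -dox cells and 7.96 and 7.94 in WT +dox cells. The 4 groups did not overlap, and their order ran F266A -dox, F266A +dox, WT -dox, WT +dox from the lowest, which is not the order of Myc turned round: F266A +dox and WT -dox cells change places. These 2 neighbours differed by -0.19 ± 0.06 and were not called (adjusted p = 0.0816), and neither were WT -dox and WT +dox cells (-0.18 ± 0.06, adjusted p = 0.0561).

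Mxi1 was called in both comparisons between transgenes. It was 0.38 lower in F266A +dox than in WT +dox cells (-0.38 ± 0.06, adjusted p = 0.00231) and 0.45 lower in F266A -dox than in WT -dox cells (-0.45 ± 0.06, adjusted p = 0.000942). Within the F266A line it fell by 0.26 without dox (-0.26 ± 0.06, adjusted p = 0.0226), a call that was lost when any of the 4 F266A arrays was left out (adjusted p from 0.0534 to 0.115). Both probe sets fell between transgenes: with dox, 1425732_a_at differed by -0.27 ± 0.08 (adjusted p = 0.0372) and 1450376_at by -0.49 ± 0.10 (adjusted p = 0.00905), in the fit that called 24.9% of probe sets. Between F266A -dox and WT +dox cells Mxi1 differed by -0.64 ± 0.06 (adjusted p = 4.05e-05). The fall of Mxi1 did not differ between lines in size beyond its error (interaction -0.07 ± 0.09, adjusted p = 0.687, 95% interval -0.28 to 0.13).

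Mxd3, whose product pairs with MAX and is known from proliferating cells, had 6.60 and 6.71 in F266A -dox cells, 6.75 and 6.69 in F266A +dox cells, 6.95 and 6.85 in WT -dox cells and 7.17 and 7.09 in WT +dox cells. The F266A groups overlapped each other and lay below both WT groups. With dox it was lower in F266A than in WT cells (-0.41 ± 0.07, adjusted p = 0.00297), and all 3 of its probe sets were called there, by -0.29, -0.46 and -0.47. It was also lower in WT -dox than in WT +dox cells (-0.23 ± 0.07, adjusted p = 0.0374) and in F266A -dox than in WT -dox cells (-0.25 ± 0.07, adjusted p = 0.034). The first of these calls was lost without any 1 of the WT or F266A +dox arrays (adjusted p from 0.0517 to 0.207), and the second without either WT -dox array or the first F266A -dox array (adjusted p from 0.0697 to 0.188). Of its single probe sets none was called between WT -dox and WT +dox cells (-0.07, -0.31 and -0.33, adjusted p = 0.599, 0.0807 and 0.0603). Between F266A -dox and WT -dox cells 1422970_at alone was (-0.28, adjusted p = 0.0412). The WT call was also lost with no filter, quantile normalization, a replicate block or trend and robust settings. The other was lost with no filter, the probe set of the highest mean or those 2 groups alone. Within the F266A line Mxd3 differed by -0.07 ± 0.07 (adjusted p = 0.543).

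The order of Mxi1 across groups was also that of an array control: the 18S ribosomal RNA probe set read 10.12 and 10.27 in F266A -dox cells, 10.91 and 10.74 in F266A +dox cells, 11.32 and 10.97 in WT -dox cells and 11.42 and 11.25 in WT +dox cells. The summed ESC markers given above ran in that order too. The summed signals of the primitive endoderm markers (1 of 7 above the minimum; Gata4, Gata6, Sox17, Sox7, Dab2 and Afp never) and of the mesoderm markers (3 of 4, Tbx6 never) were highest in F266A -dox cells. They were 211 to 214 and 230 to 281 there, against 171 to 189 and 190 to 205 over the other groups. The part of any of these in the levels of Mxi1 and Mxd3 was not tested.

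Mxd4, another MAX partner of the repressor side, was near background. Its passing probe set, 1434379_at, read 5.79 and 5.92 in F266A -dox cells, 5.49 and 5.54 in F266A +dox cells, 5.47 and 5.29 in WT -dox cells and 5.29 and 5.38 in WT +dox cells, against a minimum of 5.64. It thus passed the filter only through the 2 F266A -dox arrays, so that a higher value there was a condition of being tested, and its calls carry no weight of their own. In limma it was 0.34 ± 0.08 above F266A +dox cells (adjusted p = 0.0206) and 0.48 ± 0.08 above WT -dox cells (adjusted p = 0.00294). The call against F266A +dox cells was lost without either F266A +dox array or the second F266A -dox array (adjusted p from 0.0724 to 0.115). A second probe set, 1434378_a_at, stayed below the minimum with 5.27 and 5.44 in F266A -dox cells, 4.87 and 4.96 in F266A +dox cells, 4.79 and 4.69 in WT -dox cells and 4.54 and 4.16 in WT +dox cells. The remaining 2 of its 4 probe sets stayed below 5.24.

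Mnt, the most widely expressed of the MYC antagonists, had 7.39 and 7.48 in F266A -dox cells, 7.30 and 7.44 in F266A +dox cells, 7.48 and 7.41 in WT -dox cells and 7.43 and 7.51 in WT +dox cells. The 4 groups overlapped, their means spanned 0.10, and no comparison called it. The interval of its difference between F266A -dox and WT +dox cells was -0.21 to 0.13.

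Relative to WT +dox cells, Myc changed more than any of the other 7 members in each of the other groups. From WT +dox as the base, Myc was 2.06 further up than Mycn in WT -dox cells, 1.62 in F266A +dox cells and 2.66 in F266A -dox cells, as the difference of their log2 changes. Against Mxi1, whose differences from WT +dox cells were negative, the gap was 2.66 in WT -dox cells, 2.19 in F266A +dox cells and 3.58 in F266A -dox cells. These gaps are differences of changes on the log2 scale and carry no test, since levels of different probe sets cannot be compared. Where Myc was higher, neither Mycn nor Mycl was lower by a called amount. Between F266A -dox and WT -dox cells, where Myc was 0.47 higher, Mycn differed by -0.13 ± 0.06 (adjusted p = 0.166), with both F266A -dox arrays below both WT -dox arrays, and its probe set 1425922_a_at by -0.26 ± 0.09 (adjusted p = 0.0584). Mycl differed there by -0.13 ± 0.11 (adjusted p = 0.412). Its fall was larger, -0.30, without the first F266A -dox array, so the absence of a called fall depends on that array.

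**Figure D4:**
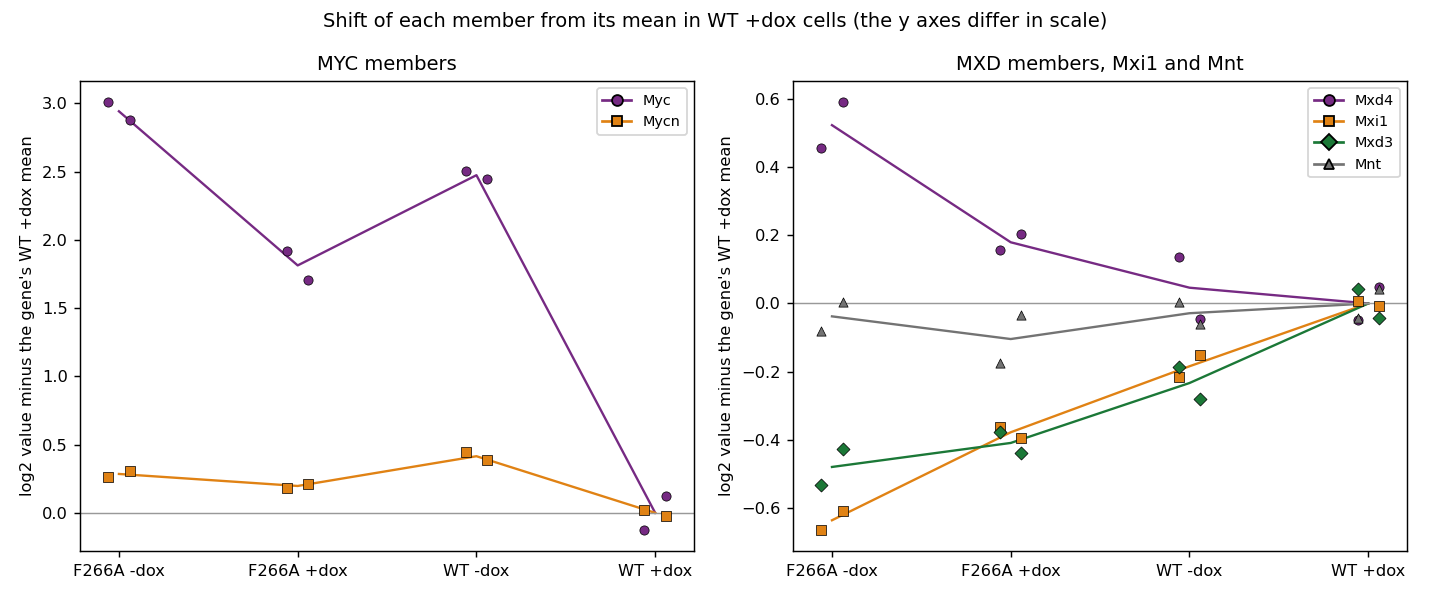
Log2 value of each array minus the gene's mean in WT +dox cells (y axis) by group (x axis), for Myc and Mycn (left) and for Mxd4, Mxi1, Mxd3 and Mnt (right). Points are arrays, lines join the group means as a guide, and the y axes differ in scale. The group means of Myc lie 1.81 to 2.94 above 0 outside WT +dox cells, while the means of Mxi1 and Mxd3 reach -0.64 and -0.48 in F266A -dox cells.

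Counted over the 8 genes, 3 were called between WT -dox and WT +dox cells (Myc and Mycn higher, Mxd3 lower), where 31.5% of all genes were. Another 3 were called between F266A -dox and F266A +dox cells (Myc and Mxd4 higher, Mxi1 lower), where 19.5% were, and this count fell to 1, Myc, without either F266A +dox array or the second F266A -dox array. With dox, 4 were called between F266A and WT cells (28.3% of all genes), and without dox 4 (27.4%), which fell to 2 without the second WT -dox array. F266A -dox against WT +dox cells called 5 (50.9%), F266A +dox against WT -dox cells called Myc alone (13.5%), and the interaction Myc alone (5.15%). A test of any difference among the 4 groups called 5 of the 8, against 51% of all genes. Without Mxd4, whose testing itself depended on the F266A -dox values, the counts that involve those cells were 2 against F266A +dox, 3 against WT -dox and 4 against WT +dox cells, and 4 for any difference. With 8 genes, 1 gene is 12.5% of the members, so these counts say nothing about the 8 as a group, and the median change of the 8 stayed within -0.18 and 0.12 in every comparison.

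**Figure D5:**
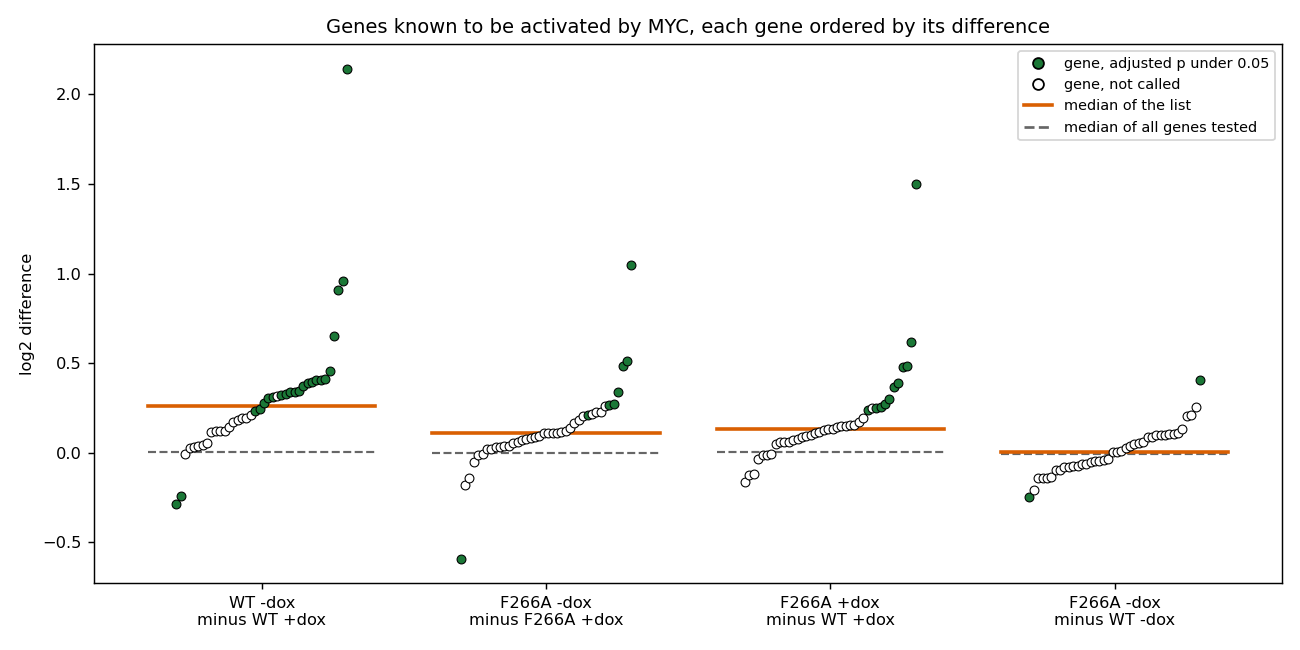
Log2 difference (y axis) of 40 genes that MYC is known to activate, in 4 comparisons (x axis), each gene a point placed in order of its difference. Filled points have an adjusted p under 0.05, the solid line is the median of the list and the dashed line that of all genes tested. The list median is 0.26 between WT -dox and WT +dox cells and 0.00 between F266A -dox and WT -dox cells; the highest point in each group is Ccnd2.

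Genes that MYC is known to activate, mostly of ribosome biogenesis and nucleotide metabolism, were more often higher than lower in the comparisons with a Myc rise above 1 on the log2 scale. Of 40 such genes, 21 rose and 2 fell in WT -dox against WT +dox cells, where 16.1% of all genes rose and 15.4% fell, and the list median was 0.26 against 0.00 for all genes. Leaving out single arrays gave between 14 and 23 that rose, with the 14 reached without the first WT +dox array or either WT -dox array. The cyclin gene Ccnd2 rose by 2.14 ± 0.08, with 7.40 and 7.45 in WT -dox cells against 5.27 and 5.28 in WT +dox cells. Both WT +dox values lie below the minimum of 5.64, and with that minimum in their place the rise was at least 1.78 (3.43-fold). The transferrin receptor Tfrc rose by 0.96 ± 0.07, the lactate dehydrogenase Ldha by 0.91 ± 0.08 and Pes1, needed for the large ribosomal subunit, by 0.65 ± 0.08 (adjusted p between 1.11e-06 and 0.000299). Tert, the catalytic subunit of telomerase, and Cad, the first enzyme of pyrimidine synthesis, fell in that comparison, calls that were lost without single WT arrays (adjusted p from 0.0659 to 0.189) and with no expression filter, that of Tert also with arrays centred on their medians.

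In F266A -dox against F266A +dox cells 7 of the 40 rose (8.94% of all genes) and Tert fell (10.6%), with a median of 0.11. The count of 7 fell to 4, 3 and 4 without the first F266A +dox, the second F266A +dox and the first F266A -dox array. Ccnd2 rose by 1.05 ± 0.08 (adjusted p = 0.000207), Srm, the spermidine synthase, by 0.51 ± 0.07 (adjusted p = 0.00231) and Prmt5, an arginine methyltransferase, by 0.48 ± 0.08 (adjusted p = 0.00432), while Tert fell by 0.59 (-0.59 ± 0.09, adjusted p = 0.00287). With dox, 11 were higher and none lower in F266A than in WT cells (15.9% and 12.5% of all genes), a count that fell to 5 without the first array of either group and to 7 without the second WT +dox array. Ccnd2 led again with 1.50 ± 0.08 (adjusted p = 5.05e-06), or at least 1.13 with the minimum in place of its WT +dox values, followed by Tfrc with 0.62 ± 0.07 (adjusted p = 0.000245). Without dox only Ccnd2 was higher (0.41 ± 0.08, adjusted p = 0.00443; 14% of all genes) and only Dkc1, of the telomerase and pseudouridine complex, lower (13.4%), and the median was 0.00. The call of Dkc1 was lost without either WT -dox array or the second F266A -dox array (adjusted p from 0.102 to 0.15) and in a fit of those 2 groups alone.

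Genes that MYC is known to repress did not move together. Of 10, 4 fell and 2 rose in WT -dox against WT +dox cells, where 15.4% of all genes fell and 16.1% rose. The cell cycle inhibitor Cdkn1a (p21) had 9.08 and 9.09 in WT -dox cells against 9.89 and 9.83 in WT +dox cells, a difference of -0.78 ± 0.08 (adjusted p = 0.00014). Txnip, an inhibitor of glucose uptake, differed by -0.77 ± 0.08 (adjusted p = 0.000155) and Cdkn1b (p27) by -0.45 ± 0.08 (adjusted p = 0.00241), while Ndrg1 rose by 0.98 ± 0.07 (adjusted p = 2.78e-05). Within the F266A line 2 rose (8.94% of all genes) and 1 fell (10.6%). The stress gene Gadd45a rose by 0.44 ± 0.08 (adjusted p = 0.00618) and Ndrg1 by 0.27 ± 0.07 (adjusted p = 0.0297), a call of Ndrg1 that was lost without any of the 4 F266A arrays, with no filter or with the brightest probe set (adjusted p up to 0.144). Cdkn1b fell (-0.41 ± 0.08, adjusted p = 0.00737) and Cdkn1a was at 9.68 and 9.88 in F266A -dox cells and 9.84 and 9.78 in F266A +dox cells. With dox, 2 were higher (15.9% of all genes) and 4 lower (12.5%) in F266A than in WT cells. Cdkn2b (p15) was 0.82 ± 0.09 higher (adjusted p = 0.000186), while Txnip (-1.09 ± 0.08, adjusted p = 1.99e-05), Ndrg2 (-0.90 ± 0.07, adjusted p = 2.83e-05) and Cdkn1b (-0.54 ± 0.08, adjusted p = 0.000889) were lower. Without dox, 3 were higher (14% of all genes) and 4 lower (13.4%). Cdkn2b (0.97 ± 0.09, adjusted p = 7.8e-05) and Cdkn1a (0.70 ± 0.08, adjusted p = 0.000255) were higher in F266A cells, and Ndrg2 (-0.71 ± 0.07, adjusted p = 0.000125) and Ndrg1 (-0.51 ± 0.07, adjusted p = 0.000792) were lower.

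Among the cofactors that MYC uses at promoters, 3 of 15 measured rose in WT -dox against WT +dox cells and none fell, a share of 20% that is near the 16.1% of all genes that rose. These were Wdr5, the shRNA target, for whose probe sets reading of the transgene was not tested, Ruvbl1 (0.56 ± 0.07, adjusted p = 0.000419), an ATPase shared by several chromatin complexes, and Paf1 (0.33 ± 0.09, adjusted p = 0.0196), of an elongation complex; the Paf1 call was lost without the first WT +dox array or either WT -dox array (adjusted p from 0.0507 to 0.133). Ruvbl1 also rose in F266A -dox against F266A +dox cells (0.40 ± 0.07, adjusted p = 0.00506) and was higher in F266A +dox than in WT +dox cells (0.35 ± 0.07, adjusted p = 0.0049), where Ctr9, the partner of Paf1, was higher too (0.52 ± 0.10, adjusted p = 0.00385). With dox 5 of the 15 were higher in F266A cells (15.9% of all genes) and none lower. Among the 5, the Wdr5 call was lost with its brightest probe set or without any array of the 2 groups. The Paf1 call was lost without the first array of either group. That of Cdk9 was lost with its brightest probe set or without the second F266A +dox array. Cdk9, the kinase of P-TEFb, was the 1 cofactor called without dox between F266A and WT cells (0.36 ± 0.07, adjusted p = 0.00392), a call that was lost with a minimum of 100 or with its brightest probe set (adjusted p up to 0.169).

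Of the genes that control MYC protein turnover, 10 were measured, and with dox 2 were higher (15.9% of all genes) and 1 lower (12.5%) in F266A than in WT cells. Usp28, a deubiquitinase that stabilises MYC, was at 9.18 and 9.06 in F266A -dox cells, 9.18 and 9.11 in F266A +dox cells, 9.55 and 9.48 in WT -dox cells and 9.76 and 9.74 in WT +dox cells. It was lower in F266A than in WT cells with dox (-0.60 ± 0.07, adjusted p = 0.000291) and without (-0.39 ± 0.07, adjusted p = 0.00321). The ubiquitin ligase genes Trim32 (0.44 ± 0.10, adjusted p = 0.00993) and Fbxw7 (0.31 ± 0.08, adjusted p = 0.0216), whose products mark MYC for degradation, were higher in F266A +dox than in WT +dox cells. The Fbxw7 call was lost without the first array of either group (adjusted p = 0.14 and 0.149), and that of Trim32 without the second WT +dox or either F266A +dox array (adjusted p from 0.0509 to 0.0666).

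Of the SIN3 and HDAC corepressors that MXD and MNT proteins recruit, 5 were measured, and with dox none was called between F266A and WT cells, where 28.3% of all genes were; with 5 genes this count says little. Without dox, where 14% of all genes were higher and 13.4% lower, Sin3a was lower in F266A cells (-0.33 ± 0.08, adjusted p = 0.0155) and its paralogue Sin3b higher (0.24 ± 0.07, adjusted p = 0.0307). Of 4 measured genes of the wider network, Mlx, whose product pairs with MNT and some of the MXD proteins, was the 1 that rose in WT -dox against WT +dox cells (16.1% of all genes, 0.31 ± 0.08, adjusted p = 0.0145). Mga, a large MAX partner, was lower in F266A -dox than in WT -dox cells (-0.38 ± 0.10, adjusted p = 0.0227). The calls of Sin3a, Sin3b and Mga were lost without either WT -dox array or the second F266A -dox array (adjusted p from 0.0598 to 0.17), that of Sin3a also with its brightest probe set and that of Sin3b also with no filter or in a fit of those 2 groups alone, and that of Mlx without the second WT +dox or either WT -dox array (adjusted p from 0.0548 to 0.08).

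The genes whose values ran most like those of a member were looked up for the 2 members with the widest range of group means, Myc and Mxi1, among 711 genes whose own group means spanned at least 1 on the log2 scale. Over the 8 arrays, which fall into 4 groups of duplicates, Myc ran closest to Ccnd2 (Pearson's r = 0.997), Znrd2 (0.997), Bend3 (0.996), Dnmt3b (0.994), a de novo DNA methyltransferase, and Armcx4 (0.990). The most opposite were Pltp (-0.996), a phospholipid transfer protein, Susd2 (-0.991) and Atp1b1 (-0.989), a sodium pump subunit. Dnmt3b had 12.05 and 11.80 in F266A -dox cells, 11.11 and 11.01 in F266A +dox cells, 11.43 and 11.46 in WT -dox cells and 9.82 and 9.80 in WT +dox cells, the same order of groups as Myc. Mxi1 ran closest to B4galnt4 (0.992), Tulp2 (0.990), Ano9 (0.989), Pdgfc (0.986), a growth factor, and Trap1a (0.985), and most opposite to Mboat1 (-0.990), Efnb2 (-0.987), an ephrin, and Capg (-0.987), an actin capping protein. These correlations describe 4 group means with 2 arrays each, are the extremes of a search and carry no test.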

How the data were processed

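The deposited table holds log2 values that the authors made by RMA (R 2.11.1 per the labels' processing notes) from 8 arrays, and it was used as deposited. Of 45101 probe sets, 34945 carried exactly 1 gene symbol, with 64 controls left out. Following the authors' signal filter, the 20046 probe sets with a linear value above 50 on 1 array or more were kept. Gene values are means over kept probe sets (11940 genes). A single limma model (limma 3.58.1, R 4.3.3) held a mean for each of the 4 groups, with 4 residual and 5.32 prior degrees of freedom. Then 6 contrasts, the interaction and an F test were adjusted by Benjamini-Hochberg. The authors' own test, SAM, was not run because the package was missing; their 2-fold rule was an alternative, beside others on the filter, probe sets, normalization, pairing and left-out arrays. The fit was tested on simulated data. All 8 members were described, with up to 4 called genes per list and contrast, named by size of change; genes that make up a small count were named after their values were seen. The members and gene lists were chosen with earlier results of these data known. Arrays give no read counts, so the number of arrays limits the precision. Promoter windows and gene names came from RefSeq tables (GRCm38.p6).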

Additional observations from a re-analysis of the deposited data

Results flagged for a closer look

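By the interaction test of limma, the effect of leaving out dox differed between lines for Myc and for 7 of the listed genes. The 7 were 4 of the 40 genes that MYC is known to activate (10%) and, of 10 it represses, 2 positive and 1 negative. None was called among the 15 cofactors, 10 turnover genes, 5 corepressors and 4 network genes measured. Among genes that MYC is known to activate, the rise without dox was smaller in F266A than in WT cells for Ccnd2 (-1.10 ± 0.11, adjusted p = 0.00144), Tfrc (-0.69 ± 0.10, adjusted p = 0.00707), Ldha (-0.57 ± 0.11, adjusted p = 0.0241) and Pes1 (-0.45 ± 0.11, adjusted p = 0.0466), as it was for Myc itself (-1.35 ± 0.14, adjusted p = 0.00188). The WT +dox values of Ccnd2 lie below the minimum signal, and with the minimum in their place its interaction was -0.73. Those of Myc, read by 1 probe set, lie just above the minimum. No gene of that list had a called interaction in the other direction, but only 264 of all 11940 genes did, so this absence says little. Among genes that MYC is known to repress, the rise of Ndrg1 was smaller in F266A cells (-0.71 ± 0.10, adjusted p = 0.00692). For Cdkn1a (0.75 ± 0.11, adjusted p = 0.008) and Txnip (0.59 ± 0.11, adjusted p = 0.0217) the interaction was positive: both fell in WT cells, and in F266A cells neither was called. Over all 11940 genes 5.15% had a called interaction, positive in 264 genes and negative in 351. Leaving out single arrays ended the calls of Ldha (5 of 8 arrays), Pes1 (7 of 8) and Txnip (5 of 8). The Pes1 call was also lost with no expression filter, with its brightest probe set, with arrays centred on their medians or with a replicate block.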

How the results depend on the processing

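The 8 genes had 21 called results over the 6 comparisons and the interaction. Of these, 15 stayed called under every alternative in which the gene was followed, other than the 2-fold rule, and all 21 kept their sign. Of 157 called results of listed genes, 83 stayed called and 157 kept their sign. Single genes were not followed in the fit of single probe sets or with crossed replicate numbers. Mxd4 was not tested with a minimum of 100. The 8 genes had 3 calls between WT -dox and WT +dox cells, 2 with no expression filter or single probe sets, and 5 with a minimum of 100 or with array weights. Between F266A +dox and WT -dox cells Myc alone was called, against 2 calls with a minimum of 100, the brightest probe set of each gene, single probe sets, the groups of the contrast alone, a crossed pairing of replicates, trend and robust settings or array weights, and 3 with quantile normalization. The interaction had 1 call, and 2 with a minimum of 100, the brightest probe set, single probe sets or trend and robust settings. Requiring a 2-fold change as well left 1, 1, 1, 0, 1 and 0 calls in the 6 comparisons between groups, in the order WT -dox against WT +dox, F266A -dox against F266A +dox, F266A against WT with and without dox, F266A -dox against WT +dox and F266A +dox against WT -dox. Leaving out each array in turn gave 2 to 4, 1 to 3, 3 to 3, 2 to 4, 5 to 6 and 1 to 2 calls in that order, 1 to 1 for the interaction and 5 to 6 for any difference. The difference of Mycl between F266A -dox and WT -dox cells ran from -0.30 to 0.044 over the left-out arrays, and changed sign without the second F266A -dox array (0.044). Same-numbered arrays deviated together within a line (r of 0.165 and 0.129) but not between lines (r of -0.111 to -0.176). The numbers thus do not pair samples between lines, and whether they pair arrays within a line was not settled. With a replicate block the 6 comparisons had 3, 3, 3, 4, 5 and 1 calls and the interaction 1. With crossed numbers, those of the F266A line swapped, they had 4, 3, 4, 4, 5, 2 and 1. Crossed numbers called 35.2% of all genes between WT -dox and WT +dox cells and 23.7% between F266A -dox and F266A +dox cells. Over all genes the share called between WT -dox and WT +dox cells was 31.5%, with 15.4% without the filter and 40.2% with a minimum of 100, and single left-out arrays took it to between 19.8% and 32.7%. The share for F266A -dox against F266A +dox cells, 19.5%, reached 8.45% without the filter and 8.49% without the first F266A +dox array, and that of the interaction, 5.15%, reached 1.59% and 1.46%, and 9.3% with trend and robust settings. Causes of these shifts were not tested. The 2 arrays per group limit what could be detected for the dim probe sets of Mxd4 and Mycl.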
